A study of Mus musculus with 15 samples.

Results

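The regions described here carried a peak of RYBP in mouse mesoderm precursors and no peak of any other Polycomb subunit that was mapped. They numbered 1230 of 6683 regions with an RYBP peak (18.4%, exact 95% interval 17.5 to 19.4) and of 11853 regions in all. The members were chosen by the presence of peaks alone: peaks of 5 lists that overlapped by 1 bp or more were merged into regions on chromosomes 1 to 19, and regions with an RYBP peak and with no peak of the other 4 lists were kept. Chromosome 9 below 3040 kb was left out, which held 2 RYBP regions, neither of them RYBP-only. The lists came from chromatin immunoprecipitation with sequencing (ChIP-seq) in cells of the E14Tg2A embryonic stem cell line. RYBP, Mel18, Cbx2 and Ring1b were mapped in early cardiac mesoderm precursors (MES), which were derived from E14Tg2A cells with BMP4, and Mel18 was also mapped in the undifferentiated embryonic stem cells (ESCs), which were kept in 2i medium with LIF. Both cell states came from 1 cell line, and no mutant or knockdown was among these 5 libraries. The other 10 of the 15 samples were not analysed here.

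Polycomb repressive complex 1 (PRC1) is a family of chromatin complexes built around the ubiquitin ligases Ring1a and Ring1b, which place ubiquitin on histone H2A. In canonical PRC1 a chromodomain protein such as Cbx2 reads the methyl mark left by PRC2, and Mel18 (Pcgf2) is one of the PCGF proteins that pair with Ring1b. In variant PRC1, RYBP or its relative YAF2 takes the place of the Cbx protein on Ring1b, and RYBP can also bind ubiquitinated H2A. RYBP was named for its binding to Ring1 and to the DNA-binding factor YY1. Ring1a was not among the proteins mapped in these lists, so an RYBP peak without a Ring1b peak says nothing of Ring1a.

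The lists held 7614 RYBP, 8641 Ring1b, 3679 Cbx2 and 4165 Mel18 peaks in MES and 6593 Mel18 peaks in ESCs. Each list belonged to 1 sample and read depth was unknown, so no comparison had a replicate check and no test was made. The absence of a peak says that the caller made no call there, which is not a measure of zero binding. Intervals on shares cover counting error only and treat regions as independent. No gene and no sequence was assigned to the regions, since no genome or annotation of mm9, the build of the peaks, was used here. Regions are named by their mm9 coordinates.

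Most RYBP regions held Ring1b, and the RYBP-only regions formed the third commonest combination. The commonest was RYBP with all 4 other lists, at 1880 regions (28.1% of RYBP regions). RYBP with Ring1b and no other list followed at 1548 regions (23.2%), and RYBP alone had 1230. The next, RYBP with Ring1b and ESC Mel18, had 545 (8.16%). RYBP with 1 list other than Ring1b was rare: 203 regions had ESC Mel18 alone beside RYBP, 124 had Cbx2 alone and 45 had MES Mel18 alone. The class thus depended mostly on the Ring1b list. With the Ring1b peaks left out before merging, 2796 regions would have been members, or 41.7% of the RYBP regions then formed. Other lists also held sites of their own. Ring1b alone made up 26.6% of Ring1b regions (2012 of 7570), ESC Mel18 alone 31.1% (1630 of 5237), Cbx2 alone 12.4% (428 of 3444) and MES Mel18 alone 10.5% (375 of 3566). Between lists of unknown depth these shares show no order of the subunits.

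RYBP-only peaks were low-scoring within the RYBP list. The authors' score, whose scale is not stated and which is used here only to rank RYBP peaks, had a median of 67.2 at RYBP-only peaks (quartiles 56.6 and 93.5, range 50 to 418). At RYBP peaks with at least 1 other list it had a median of 143.6 (quartiles 84.0 and 262.0, range 50.01 to 2765, n = 6262 peaks). The lowest score in the whole RYBP list was 50, so many RYBP-only peaks lay just above the floor of the list. The median RYBP-only peak stood at the 19.9th percentile of RYBP peaks by score, against the 56.9th for those with another list. A score of 100 or more was found at 259 RYBP-only peaks (21.1%), against 4164 with another list (66.5%). A score of 200 or more was found at 28 (2.28%), against 2232 (35.6%). The size of the class therefore turned on where each list was ended: with the upper 50% of the RYBP list by score it held 151 regions (4.46% of RYBP regions), and with the upper 50% of each of the other lists it held 2960 (44.1%). These values describe the class and test nothing, since the presence of a call in another list moves with RYBP score.

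The RYBP-only share fell steadily along the RYBP list. With the list divided by score into 10 deciles, it was 44.3% of the 750 peaks in the lowest decile (interval 40.7 to 47.9), 38.1% in decile 2, 26.8% in decile 3 and 18.8% in decile 4. It was 16.2, 9.20, 7.08 and 2.80% in deciles 5 to 8. In decile 9 it was 0.668% (5 peaks) and in the highest 0.267% (2 of 749 peaks, interval 0.0324 to 0.961). RYBP with Ring1b alone had a flatter course, at 20.4% in the lowest decile, 29.0% in decile 3 and 8.95% in the highest. RYBP with all 4 other lists took the opposite course, at 12.8% in the lowest decile and 74.2% in the highest.

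**Figure D1:**
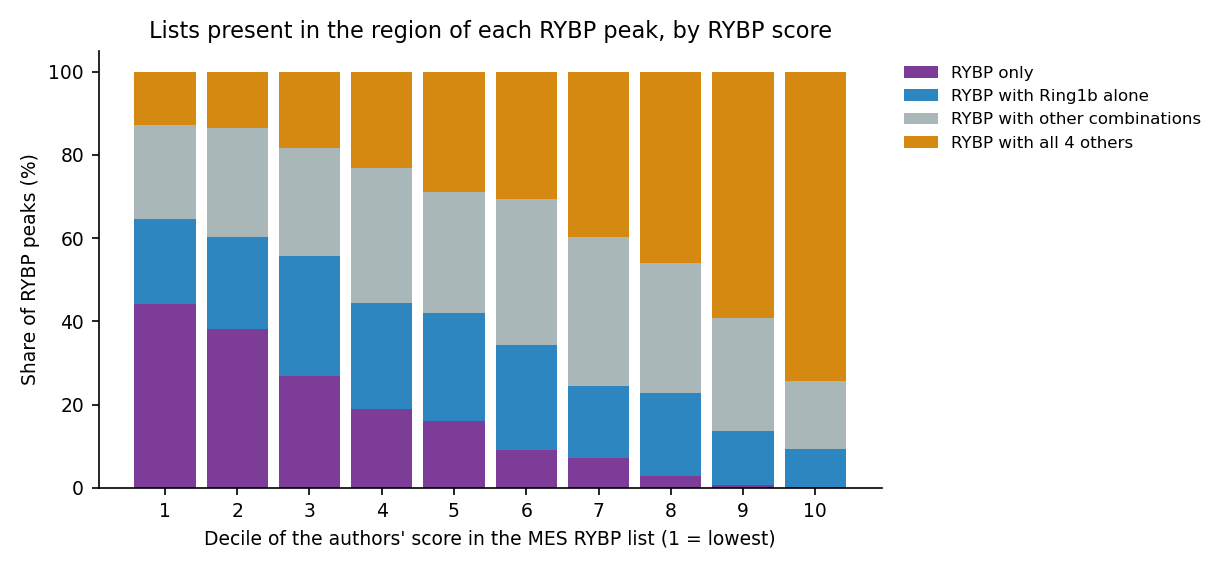
Share of MES RYBP peaks (vertical axis, %) by the other lists in their region, in deciles of the RYBP list by the authors' score (horizontal axis, 1 = lowest). The purple RYBP-only part is 44.3% of the lowest decile and 0.267% of the highest, while the orange part with all 4 other lists is 12.8% of the lowest and 74.2% of the highest.

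The score and width of RYBP peaks rose with each further list in the region, and RYBP-only peaks were the low end of both series. Median score was 67.2 with no other list, 99.6 with 1 other list, 123.5 with 2, 159.2 with 3 and 209.3 with 4. Median RYBP peak width was 1077.5 bp with no other list, 1322 bp with 1, 1507 bp with 2, 1606 bp with 3 and 1937 bp with 4. Width at RYBP-only peaks had quartiles of 790 and 1426.5 bp, a range of 280 to 5676 bp, and an order-statistic 95% interval of the median of 1051 to 1110 bp. The ranges between the quartiles of RYBP-only peaks and of those with 1 other list overlapped in score (56.6 to 93.5 against 69.2 to 162) and in width (790 to 1426.5 bp against 1044 to 1685 bp). A wider peak has more room to overlap another, so width, like score, is not independent of how the class was made.

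**Figure D2:**
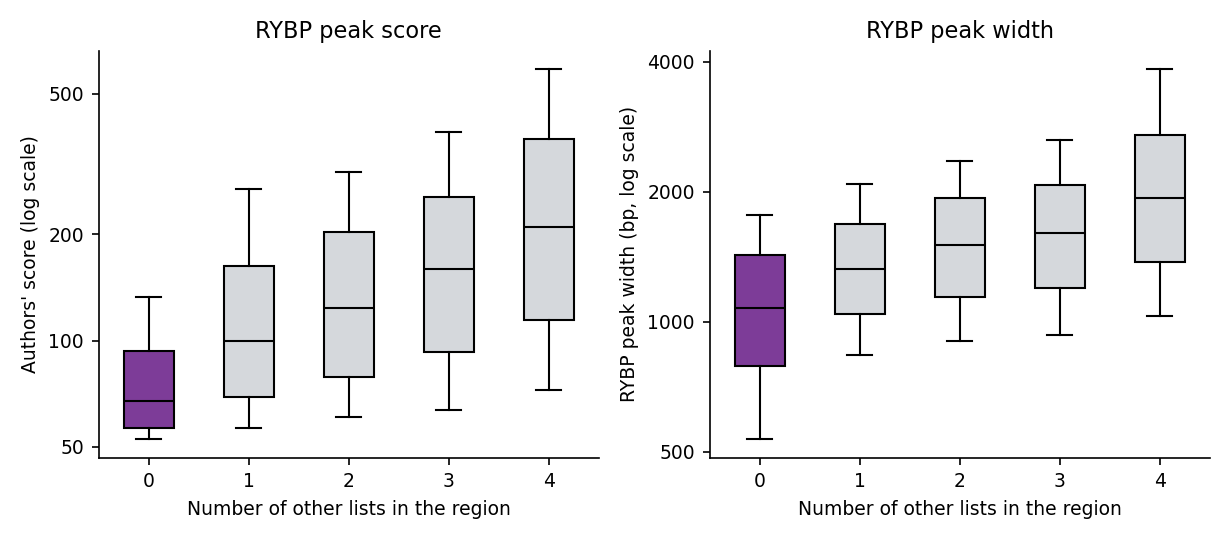
Authors' score (left, log scale) and width in bp (right, log scale) of MES RYBP peaks by the number of other lists in their region, with boxes for the quartiles, a line for the median and whiskers for the 10th and 90th percentiles. RYBP-only peaks (0 other lists, purple) had the lowest medians, 67.2 in score and 1077.5 bp in width, against 209.3 and 1937 bp with 4 other lists.

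Against RYBP with Ring1b alone, the RYBP-only peaks were 0.807 times as wide at the median (interval 0.771 to 0.852). Their median score was 67.2, against 103.1 with Ring1b alone. Against RYBP with all 4 other lists they were 0.556 times as wide, and the median scores were 67.2 and 209.3. Whole regions differed more, because other lists extend them: the median RYBP-only region was 1077.5 bp, that of RYBP with Ring1b alone 1482 bp and that of all 5 lists 3878.5 bp. The 1230 RYBP-only peaks, of 7492 peaks in RYBP regions, covered 1.40 Mb, or 10.8% of the bases under those peaks. By construction each RYBP-only region held exactly 1 RYBP peak, since peaks of 1 list do not overlap each other.

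Much of the width difference went with score. In the lowest quartile of RYBP peaks by score, the 727 RYBP-only peaks had a median width of 898 bp (quartiles 636 and 1183.5 bp), against 1069.5 bp (837 and 1375.5 bp) for the 1146 peaks with another list. In the second quartile the medians were 1276 bp for 353 RYBP-only peaks and 1282 bp for 1520 others, a ratio of 0.995. In the third they were 1511 bp for 134 RYBP-only peaks and 1649 bp for 1739 others. In the highest quartile, 16 RYBP-only peaks had a median of 1726 bp, against 2322 bp for 1857 others. Within that quartile RYBP-only peaks also had lower scores, with a median of 269.9 against 364.4. In the lowest quartile the medians of score were closer, at 58.2 for RYBP-only peaks and 60.5 for the others, and the ratio of widths was 0.840. Over the lower 50% of the list by score, which held 87.8% of the RYBP-only peaks, the median widths were 1018 and 1196 bp, a ratio of 0.851, against 0.680 over the whole list. Scores still differed there, since RYBP-only peaks made up 44.3% of decile 1 and 16.2% of decile 5. By decile the ratio of median widths was 0.827, 0.871, 0.972, 1.02 and 1.02 in deciles 1 to 5. Across the RYBP-only peaks, score and width had a Spearman rho of 0.53 (n = 1230 peaks of 1 library), and across peaks with another list one of 0.69.

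**Figure D3:**
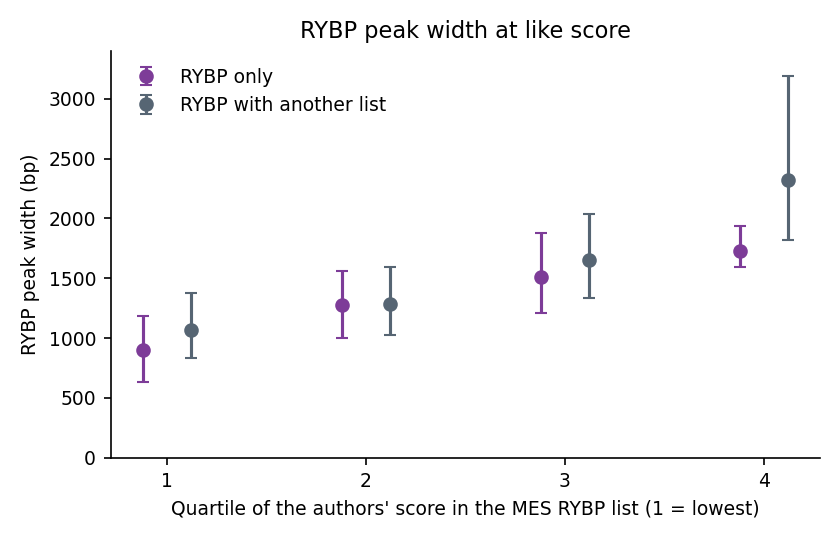
Median width of MES RYBP peaks in bp (points, with bars from the lower to the upper quartile of width) in quartiles of the RYBP list by the authors' score (1 = lowest), for RYBP-only peaks (purple) and RYBP peaks with another list (grey). The bars overlap in every quartile, with medians of 1276 and 1282 bp in the second and of 1726 and 2322 bp in the highest.

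The 10 RYBP-only peaks with the highest scores stood between the 78.9th and 90.1st percentile of the RYBP list, and 7 of them had no peak of another list within 50 kb. Of all 1230 RYBP-only regions, 617 (50.2%) had a peak of another list within that distance. So few peaks do not show that higher-scoring ones were more isolated. The highest score, 418.0, belonged to a peak of 2495 bp at chr1:36124366-36126860, whose nearest peak of another list, of ESC Mel18, was 198 kb away. The second, at chr1:38185603-38187467 with a score of 416.5 and a width of 1865 bp, lay 130.0 kb from a Ring1b peak. These were the RYBP-only peaks in the highest decile of the list, and neither had a peak of another list within 50 kb.

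The next 2 differed in what lay around them. A peak of 1638 bp at chr10:36855583-36857220 (score 312.2) lay only 1.75 kb from a Ring1b peak and 1.504 kb from a region of all 5 lists, with 4 peaks of other lists within 50 kb. A peak of 1594 bp at chr6:4550303-4551896 (score 307.7) had none within 50 kb. The peak with the next score, at chr15:78743912-78745370 (score 302.2, 1459 bp), had a second RYBP-only peak 10.9 kb away at chr15:78756224-78759309 (score 181.7, 3086 bp). That neighbour was also the second widest of all RYBP-only peaks. A Ring1b peak lay 18.5 kb beyond the pair.

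The remaining 5 of the 10 highest scores ran from 261.4 to 297.8. They lay at chr14:26425712-26427930, chr10:107769156-107770740, chr3:61168252-61170011, chr3:119485186-119487337 and chr19:3684892-3687280. Their distances to the nearest peak of another list were 20.8, 676, 360, 1346 and 56.6 kb, in that order.

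The widest RYBP-only peak, of 5676 bp, lay at chr11:3030647-3036322 with a score of 197.4. It stood near the start of the chromosome as the lists cover it, since the first peak of any list on chromosome 11 began at 3000094, and 4.86 kb from another RYBP-only peak. Whether peaks in that stretch reflect binding was not tested. After the peak on chromosome 15, the next widest lay at chr1:134034684-134037680 (2997 bp, score 91.8), chr3:58218478-58221370 (2893 bp, score 220.4) and chr12:12946022-12948837 (2816 bp, score 115.0). Width of 2 kb or more was reached by 66 RYBP-only peaks (5.37%), against 1882 peaks with another list (30.1%).

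A peak of another list lay within 10 kb of 210 RYBP-only regions (17.1%, interval 15.0 to 19.3), within 50 kb of 617 (50.2%) and within 100 kb of 870 (70.7%). The median distance was 49.7 kb, with quartiles of 17.4 and 117 kb. The nearest peak was of Ring1b for 611 RYBP-only regions (49.7%), of ESC Mel18 for 273 (22.2%), of Cbx2 for 199 (16.2%) and of MES Mel18 for 147 (11.95%). Ring1b also had the longest list, at 8641 peaks, and Cbx2 the shortest.

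For a comparison that can be made for every class, the nearest other region of any kind was taken. One lay within 10 kb of 19.8% of RYBP-only regions (243 of 1230), against 25.8% of RYBP regions with another list (1406 of 5453). The difference was -6.03 percentage points (normal-approximation interval -8.54 to -3.52, counting error only). By class, the share was 19.8% (interval 17.6 to 22.1) for RYBP-only regions, 19.5% (17.6 to 21.6) for RYBP with Ring1b alone, 23.4% (21.5 to 25.3) for other combinations with RYBP and 33.6% (31.4 to 35.7) for all 5 lists. A long stretch can be split into several regions, whose parts then count as close neighbours. At 50 kb the shares were 54.7% (51.9 to 57.5) for RYBP-only regions, 59.4% (56.9 to 61.9) for RYBP with Ring1b alone, 55.1% (52.9 to 57.3) for other combinations and 60.3% (58.1 to 62.5) for all 5 lists. At 100 kb they were 75.2% (72.7 to 77.6) for RYBP-only regions, 79.7% (77.6 to 81.7) for RYBP with Ring1b alone, 73.6% (71.7 to 75.5) for other combinations and 75.5% (73.5 to 77.4) for all 5 lists. Over all regions the shares were 27.8% at 10 kb, 61.2% at 50 kb and 78.6% at 100 kb. RYBP-only regions thus stood beside RYBP with Ring1b alone at 10 kb and below it at 50 and 100 kb. Their intervals overlapped at 50 kb and met, to the digits given, at 100 kb.

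A site that held all 5 lists lay near a smaller share of RYBP-only regions than of all regions. The same held for RYBP with Ring1b alone and for other combinations with RYBP. At 10 kb the intervals of RYBP-only regions and of RYBP with Ring1b alone overlapped. A region of all 5 lists lay within 10 kb of 25 RYBP-only regions (2.03%, interval 1.32 to 2.99), against 47 regions of RYBP with Ring1b alone (3.036%, interval 2.24 to 4.02) and 10.5% of the regions of all 5 lists themselves. The share was 3.95% for other combinations with RYBP and 7.27% for all regions, which include those of all 5 lists. At 100 kb the shares were 19.2% for RYBP-only regions, 23.3% for RYBP with Ring1b alone and 32.0% for regions of all 5 lists. Over all regions the share was 28.0%. The median distance to a region of all 5 lists was 329 kb for RYBP-only regions (interval 308 to 360), against 278 kb (256 to 300) for RYBP with Ring1b alone. Where an RYBP-only region had any region within 10 kb, the nearest one lacked RYBP in 116 of 243 cases (47.7%) and was itself RYBP-only in 38 (15.6%). Of all 11853 regions, 6683 held RYBP and 10.4% were RYBP-only.

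**Figure D4:**
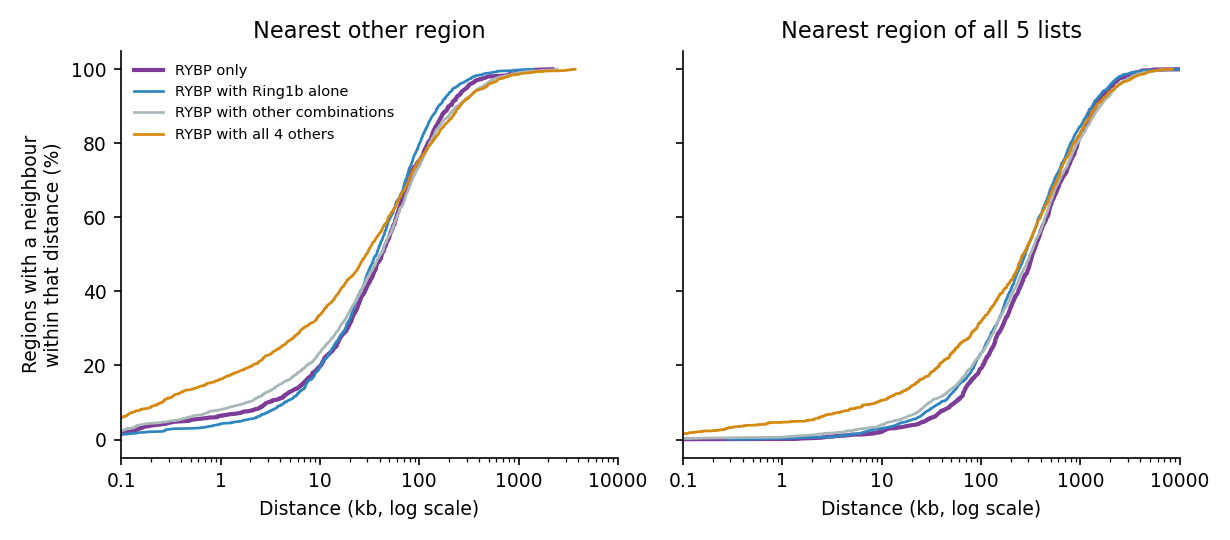
Cumulative share of RYBP regions (vertical axis, %) whose nearest other region (left) or nearest region of all 5 lists (right) lay within the distance on the horizontal axis (kb, log scale), for 4 classes of region. At 10 kb RYBP-only regions (purple) stand at 19.8% on the left and 2.03% on the right, near RYBP with Ring1b alone (19.5 and 3.036%) and below regions of all 5 lists (33.6 and 10.5%).

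The flanks of RYBP-only regions, 50 kb on each side, held on average 0.766 Ring1b, 0.455 ESC Mel18, 0.286 MES Mel18 and 0.253 Cbx2 peaks. In the same order, RYBP regions with Ring1b alone had 0.873, 0.510, 0.341 and 0.308, other combinations with RYBP had 0.830, 0.731, 0.406 and 0.345, and regions of all 5 lists had 1.08, 0.940, 0.740 and 0.662. No Ring1b peak was present in the flanks of 58.0% of RYBP-only regions, against 53.9% with Ring1b alone, 58.1% with other combinations and 52.7% with all 5 lists. No Cbx2 peak was present in those of 82.1% of RYBP-only regions, against 79.2% with Ring1b alone, 77.6% with other combinations and 65.4% with all 5 lists. Further RYBP peaks were found in the flanks at a mean of 0.646 for RYBP-only regions, against 0.716 for RYBP with Ring1b alone, 0.784 for other combinations and 0.873 for all 5 lists.

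Another RYBP-only region was within 10 kb of 43 RYBP-only regions (3.50%, interval 2.54 to 4.68). An RYBP-only region lay that close to 2.65% (1.91 to 3.58) of regions of RYBP with Ring1b alone, 1.38% (0.905 to 2.02) of regions of all 5 lists and 2.43% (2.16 to 2.72) of all regions. Within 1 kb the shares were 2.11% (1.39 to 3.08) for RYBP-only regions and 0.658% (0.521 to 0.821) for all regions. Of the 43 RYBP-only regions, 26 had such a neighbour within 1 kb. With peaks within 1 kb joined, 1.37% of RYBP-only regions lay within 10 kb of each other. Whether close pairs were single sites split into 2 peaks was not tested. Chains with gaps of up to 10 kb gave 20 pairs and 1 group of 3. The group of 3 lay at chr10:79599194-79614068, with scores from 57.2 to 101.5 and 2 Ring1b peaks within 10 kb. The pair with the highest score, at chr17:35030892-35036491, had peaks scoring 220.7 and 61.1 and no peak of another list within 10 kb. The pairs next in score lay at chr11:3025490-3036322, at the chromosome start described above and with 1 Cbx2 peak beside it, at chr8:73999531-74010082, whose peaks scored 193.9 and 159.7 beside 1 Ring1b peak, and at chr16:46496283-46498232.

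The extremes of isolation lay on chromosomes 14, 6 and 10. The RYBP-only region farthest from any other list, at chr14:37910934-37911744 (score 118.5, 811 bp), was 2274 kb from an ESC Mel18 peak. The next, at chr6:131337368-131338620 (score 123.2) and chr10:129979360-129979876 (score 56.3), were 1716 and 1519 kb away. At the other end, 13 RYBP-only regions had a peak of another list within 100 bp, and 12 RYBP peaks were kept out of the class by a largest overlap of 100 bp or less. The nearest cases inside the rule lay at chr17:66131708-66132659, 7 bp from a Cbx2 peak, at chr1:94076149-94076930, 8 bp from a Ring1b peak, and at chr10:126416111-126417620, 23 bp from one. The nearest outside it, at chr12:114237891-114239079 and chr15:102077682-102078848, overlapped ESC Mel18 peaks by 5 and 7 bp. These named cases scored 85.1, 67.0 and 88.6 inside the rule and 81.4 and 52.2 outside it. All lay below the median of 122.6 of all RYBP peaks. Within the class, 85.1 and 88.6 lay above the RYBP-only median of 67.2. The named cases do not stand for all near the rule, since others of the 13 regions within 100 bp scored above 122.6.

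The RYBP-only share of each autosome lay within counting error of the overall share. It ranged from 14.6% on chromosome 8 (51 of 350 RYBP regions, interval 11.05 to 18.7) to 22.6% on chromosome 17 (67 of 296, interval 18.0 to 27.8), with a median of 18.4% over chromosomes. The interval of each of the 19 chromosomes held the overall share of 18.4%. RYBP-only regions were most numerous on chromosome 11 (111) and chromosome 2 (99) and fewest on chromosome 18 (32). Per Mb of the span that the peaks of a chromosome cover they ranged from 0.368 on chromosome 18 to 0.936 on chromosome 11, while RYBP regions with another list ranged from 1.38 on chromosome 14 to 3.69 on chromosome 11. Median score of RYBP-only peaks ran from 61.1 on chromosome 9 to 72.6 on chromosome 5, and median width from 899.5 bp on chromosome 16 to 1166 bp on chromosome 10. On chromosomes outside the rule, 18 of 102 RYBP regions on X and 4 of 5 on Y were RYBP-only.

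**Figure D5:**
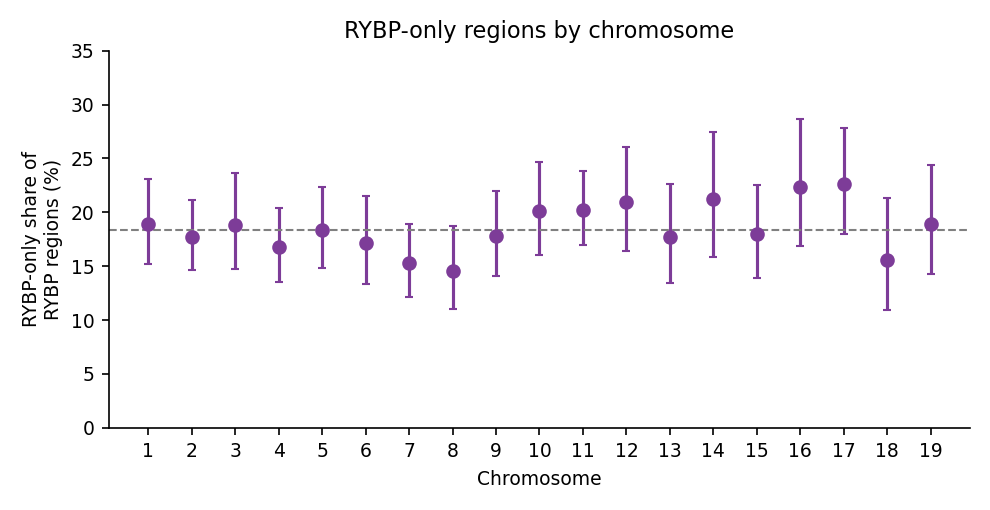
RYBP-only share of RYBP regions (%) on each of the 19 autosomes, as points with exact 95% intervals for counting error. The dashed line marks the overall share of 18.4%, which lies inside each interval, and the points run from 14.6% on chromosome 8 to 22.6% on chromosome 17.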

How the data were processed

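The authors deposited 1 list of peaks per ChIP-seq library, with start, end and a score for each peak. The peak names carry the tag of the MACS caller, per the file headers and names. The submitters' processing notes name the mm9 build and, for the whole series, Bowtie and TopHat. Not given in the sources used here are their versions, the caller's settings and control, any pooling of replicates and the scale of the score. The deposited starts count from 0 and are printed counted from 1. Read depth is unknown, which limits the number and width of peaks in ways that could not be corrected.

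Peaks were merged and classed with Python 3.11.15, numpy 2.4.6 and pandas 2.3.3. Shares have exact Clopper-Pearson 95% intervals (scipy 1.17.1), medians have order-statistic intervals, and ratios combine the interval ends of both medians. Distances run between region or peak edges. The members were found again with bedtools 2.31.1, with 0 of 1230 differing, and the overlap code was tested on simulated data. Regions were named by fixed ranks: the 10 highest scores, the 5 widest, the 5 groups with most members, and the 3 closest to and farthest from another list. The members and these rules were chosen with earlier results of these data known. No test was made, with 1 sample per list.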

Additional observations from a re-analysis of the deposited data

How the results depend on the processing

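No paired analysis was possible because no group held more than 1 sample. Of 54 recomputed values, 30 stayed within their interval or within 1.5 times the count and 24 moved. A reversal was defined only for the difference in neighbour share between RYBP-only and other RYBP regions, where 0 were found. Its only alternatives were the lower 50% by score and a distance of 50 kb, both added after the data were seen. They say little of how stable the sign is. Against RYBP with Ring1b alone at 10 kb, the shares ran the other way, at 19.8% for RYBP-only regions and 19.5%. Gene starts, CpG content and motifs were not run, since a genome of the files' build was not used here. The size of the class rested on the score floors. The direction was fixed in advance, since shortening the RYBP list removes members and shortening the other lists adds them. With the upper 50% of the RYBP list, 151 RYBP-only regions were left (4.46% of RYBP regions), with a median score of 164.1, a median width of 1569 bp and a width ratio to other RYBP regions of 0.574. With the upper 50% of each of the other lists, there were 2960 (44.1%), with a median score of 77.7, a median width of 1197.5 bp, 8.18% within 10 kb of another list and 7.26% within 10 kb of each other. With the Ring1b peaks left out before merging there were 2796 (41.7%). With the ESC Mel18 or the Cbx2 peaks left out in the same way the shares were 21.6 and 20.3%. Requiring 50% of the shorter peak put 20.8% within 10 kb of another list, and joining peaks within 1 kb put 13.4% there and 1.37% near each other. The share near another list was 10.5% at 5 kb and 50.2% at 50 kb, and that near another RYBP-only region 12.8% at 50 kb. Alternatives added after the data were seen used the lower 50% by score in both sets, which gave width ratios of 0.851 for RYBP peaks and 0.622 for regions, and a neighbour distance of 50 kb, which gave a difference of -3.42 percentage points.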
